A study of Homo sapiens with 8 samples.

Results

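PAX genes encode transcription factors that bind DNA through a paired domain and direct the formation of organs in the embryo. Of the 14884 genes that could be named and measured in these arrays, 8 are described here: PAX1, PAX2, PAX3, PAX5, PAX6, PAX7, PAX8 and PAX9. They were taken from a list of the family, and each was read from the single probe set that the platform annotation names for it. Expression was measured in 2 established Ewing sarcoma cell lines, SK-ES1 and A673, both of which carry the EWSR1-FLI1 fusion. The 4 groups were SK-ES1 with a short hairpin RNA against RING1B (shRING1B), SK-ES1 with a hairpin against GFP (shGFP), A673 with shRING1B and A673 with shGFP, with 2 arrays each. All groups therefore carried a hairpin, and the labels give no time after its introduction. RING1B is a ubiquitin ligase of Polycomb repressive complex 1, and the series title ties it to EWSR1-FLI1 and chromatin.

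Members of the family fall into subgroups by their other domains. PAX3 and PAX7 carry a full homeodomain as well as the paired domain and specify muscle precursors and neural crest, and PAX7 maintains the satellite cells of adult muscle. PAX6 also has a full homeodomain and directs the eye and forebrain. PAX2, PAX5 and PAX8 have a partial homeodomain and act in kidney and ear, in B cells, and in thyroid and kidney. PAX1 and PAX9 lack a homeodomain and pattern the sclerotome, which forms the vertebrae, and the pharyngeal pouches. PAX7 is used as a marker of Ewing sarcoma, where its expression depends on EWSR1-FLI1. Many PAX loci are classical Polycomb targets in embryonic cells.

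All values are log2 expression values, on which a difference of 1 is a doubling, and the 8 array medians over all probe sets lay between 4.01 and 4.10. Across genes, replicate pairs had correlations of 0.991 to 0.994, and no pair was identical. Pairs between the hairpins had 0.9909 to 0.9918 in SK-ES1, which overlaps with the range of the replicate pairs, and 0.9827 to 0.9875 in A673. The Ewing sarcoma markers that could be measured, CD99, NKX2-2, STEAP1 and BCL11B, lay between 7.34 and 12.3 on every array. Of 22 markers of muscle, B cells, other immune cells, epithelium, endothelium and melanocytes, 11 were measured and lay between 2.88 and 6.21. Limma called 0 of these 11 in either line, with 1 in SK-ES1 and 2 in A673 at an unadjusted p under 0.05. The smallest adjusted p was 0.0712, for the muscle marker DES in A673. DES had 6.155 and 5.85 in SK-ES1 shRING1B, 6.10 and 5.55 in SK-ES1 shGFP, 6.21 and 5.945 in A673 shRING1B, and 5.51 and 5.04 in A673 shGFP. The measured muscle markers did not move together in A673. The difference, shRING1B minus shGFP, was 0.80 for DES and 0.18 for MYF6, but -0.09 for MYOD1 and -0.14 for MYOG. The mean level of the 4 measured muscle markers was 4.65 to 4.70 in SK-ES1 shRING1B, 4.43 to 4.78 in SK-ES1 shGFP, 4.48 to 4.56 in A673 shRING1B and 4.20 to 4.46 in A673 shGFP, and its part in the results was not tested. Fewer cells of a type and less RNA per cell cannot be told apart in such bulk samples. The level of the targeted gene was not analysed here, so unequal depletion of RING1B and unequal response of the lines cannot be told apart. The labels do not state whether the 2 arrays of a group are separate cultures, so the p-values cover no more than array-to-array spread, possibly technical. PAX genes share a conserved paired box, and how far a probe set of 1 member detects another was not tested.

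PAX7 stood higher in SK-ES1 than in A673 under both hairpins. Under shRING1B it rose 1.8-fold in A673, and no change was called in SK-ES1. The plot of the PAX genes by array shows both steps. PAX7 had log2 values of 8.41 and 8.09 in the SK-ES1 shRING1B arrays, against 8.37 and 8.39 in the SK-ES1 shGFP arrays. In A673 it had 7.14 and 7.08 under shRING1B, against 6.405 and 6.12 under shGFP. The ranges of the SK-ES1 groups overlapped, while both A673 shRING1B arrays lay above both A673 shGFP arrays. The A673 shRING1B values still lay below every SK-ES1 value. In a limma fit of all 14884 genes the A673 difference was 0.84, with a standard error of 0.143 and a 95% interval of 0.53 to 1.16 (adjusted p = 0.0126). The SK-ES1 difference was -0.13, with an interval of -0.45 to 0.19 (adjusted p = 0.905). The A673 call was lost without A673 shRING1B replicate 1 (adjusted p = 0.0618) and without A673 shGFP replicate 2 (adjusted p = 0.148), where the differences were 0.81 and 0.70.

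**Figure D1:**
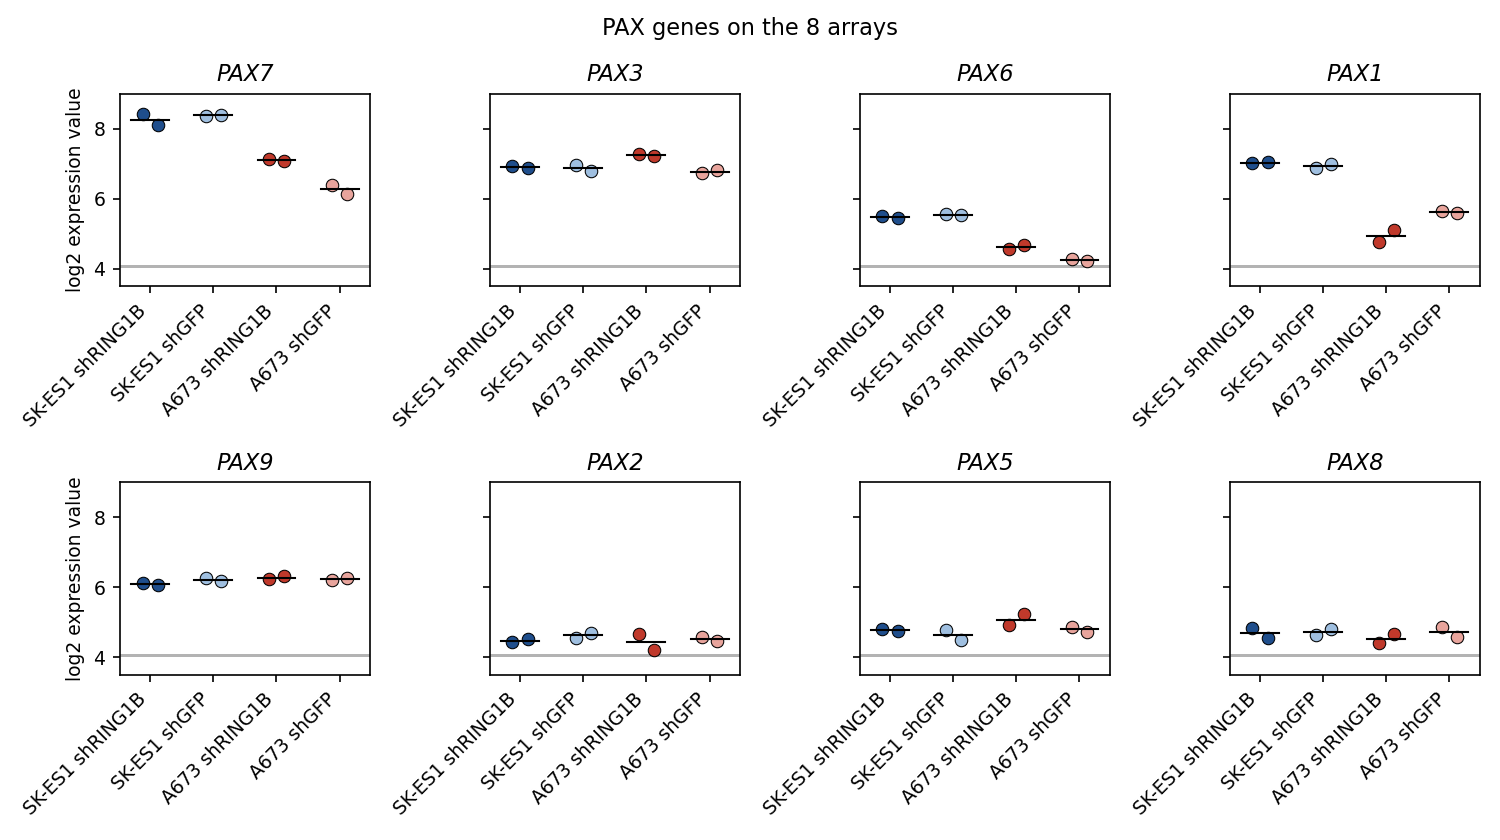
Log2 expression value of each PAX gene on each of the 8 arrays, by group. Points are arrays, black lines are means of the 2 arrays, and the grey band spans the array medians over all probe sets (4.01 to 4.10). PAX7 lies between 6.12 and 8.41, with both A673 groups below both SK-ES1 groups and A673 shRING1B above A673 shGFP.

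The promoter windows of PAX7, PAX3 and PAX6 are shown because these are the homeodomain members, and because GGAA is the core of sites bound by FLI1 and other ETS factors. EWSR1-FLI1 is known to bind runs of repeated GGAA. Each is the stretch of 250 bases before the most upstream annotated start, from RefSeq on GRCh38.p14, 5′ to 3′ on the gene's strand. Capitals mark GGAA or its complement TTCC, searched on both strands, and the motifs do not overlap.
PAX7, chr1:18630596-18630845, plus strand: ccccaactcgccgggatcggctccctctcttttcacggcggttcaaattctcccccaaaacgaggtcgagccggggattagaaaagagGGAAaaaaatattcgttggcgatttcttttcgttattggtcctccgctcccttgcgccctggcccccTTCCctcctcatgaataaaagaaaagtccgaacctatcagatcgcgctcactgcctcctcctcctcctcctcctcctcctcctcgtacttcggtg
PAX3, chr2:222298999-222299248, minus strand: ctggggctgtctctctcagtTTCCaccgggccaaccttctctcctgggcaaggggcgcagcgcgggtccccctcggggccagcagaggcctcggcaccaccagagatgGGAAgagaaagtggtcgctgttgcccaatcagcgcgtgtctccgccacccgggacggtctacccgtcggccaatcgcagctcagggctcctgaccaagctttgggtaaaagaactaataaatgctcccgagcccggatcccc
PAX6, chr11:31817962-31818211, minus strand: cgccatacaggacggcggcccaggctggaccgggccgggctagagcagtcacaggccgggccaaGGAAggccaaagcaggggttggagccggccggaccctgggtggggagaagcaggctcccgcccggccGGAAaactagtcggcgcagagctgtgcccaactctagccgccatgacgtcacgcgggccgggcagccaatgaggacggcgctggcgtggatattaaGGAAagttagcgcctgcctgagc
The PAX7 and PAX3 windows held 2 matches each and the PAX6 window held 3, while the median over 35116 promoter windows of this length was 3. At least 1 match was present in 92.7% of those windows. The doubled motif, GGAAGGAA or TTCCTTCC, was in 3.06% of all windows and in none of these 3. It was in another of the 9 PAX6 windows, chr11:31809960-31810209, which held 7 matches, a number that 4.10% of all windows reach. That share is for a single window, while PAX6 had 9 windows and PAX7 and PAX3 had 1 each. The most upstream windows of PAX2 and PAX9, not printed here, held 6 matches each, a number that 9.14% of all windows reach. RefSeq windows were matched for 7 of the 8 members, all but PAX1. No binding was measured in these samples, and a match is a description of letters only.

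PAX3, the closest relative of PAX7 in the family, showed no called difference between the lines under shGFP, at 0.10 with a 95% interval of -0.16 to 0.35. Its log2 values were 6.92 and 6.86 in SK-ES1 shRING1B, against 6.96 and 6.78 in SK-ES1 shGFP. In A673 they were 7.28 and 7.21 under shRING1B, against 6.73 and 6.82 under shGFP. The highest values were thus the A673 shRING1B arrays, above the other 6. Among those, SK-ES1 shGFP overlapped with SK-ES1 shRING1B and with A673 shGFP, and both SK-ES1 shRING1B arrays lay above both A673 shGFP arrays. The A673 difference was 0.47, or 1.38-fold, with a standard error of 0.116, and missed the threshold (limma adjusted p = 0.0563). It passed with a trended and robust variance (adjusted p = 0.0149) and when dim genes were left out (adjusted p = 0.032). The SK-ES1 difference was 0.02, with a 95% interval of -0.24 to 0.28. Across the 8 arrays PAX3 and PAX7 correlated at -0.02, given as a description of 8 arrays from 4 groups.

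PAX6, the eye and forebrain factor, followed the pattern of PAX7 at a smaller scale. It had 5.503 and 5.44 in SK-ES1 shRING1B, against 5.56 and 5.53 in SK-ES1 shGFP. Its A673 values were 4.58 and 4.69 under shRING1B, against 4.28 and 4.24 under shGFP. These A673 values lay near the array medians of 4.01 to 4.10. All SK-ES1 arrays lay above all A673 arrays, and within A673 both shRING1B arrays lay above both shGFP arrays. The A673 difference of 0.38, with a standard error of 0.109, did not pass (limma adjusted p = 0.0924), nor did the SK-ES1 difference of -0.07 (adjusted p = 0.939). PAX6 and PAX7 correlated at 0.988 over the 8 arrays, a description that rests mostly on the step between the lines.

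PAX1 changed in the direction opposite to PAX7 in A673. It had 7.02 and 7.03 in SK-ES1 shRING1B, against 6.88 and 6.995 in SK-ES1 shGFP. The A673 arrays had 4.76 and 5.12 under shRING1B, against 5.64 and 5.59 under shGFP. The A673 shRING1B arrays were the lowest of all and did not overlap with A673 shGFP. PAX1 fell by 0.68 on the log2 scale in A673, to 0.625 times the shGFP level, with a 95% interval of -0.98 to -0.38 (limma adjusted p = 0.0258). The SK-ES1 difference was 0.09, with a 95% interval of -0.21 to 0.39. The A673 call was lost without A673 shGFP replicate 1 (adjusted p = 0.112), A673 shRING1B replicate 1 (0.11) or A673 shGFP replicate 2 (0.166). It was also lost when only the 4 A673 arrays were fitted (0.0811) and when all probe sets were tested (0.0604).

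PAX9, the relative of PAX1, held nearly 1 level throughout. Its values were 6.12 and 6.07 in SK-ES1 shRING1B and 6.25 and 6.19 in SK-ES1 shGFP. In A673 they were 6.23 and 6.32 under shRING1B and 6.22 and 6.27 under shGFP. The SK-ES1 shRING1B arrays were the lowest pair, below both SK-ES1 shGFP arrays. The differences were -0.13 in SK-ES1, with a 95% interval of -0.37 to 0.12, and 0.03 in A673, with an interval of -0.21 to 0.28, and neither passed (limma adjusted p = 0.882 and 0.9).

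PAX2, PAX5 and PAX8, the members with a partial homeodomain, lay near the array median and were not called in any comparison. PAX2 had 4.445 and 4.52 in SK-ES1 shRING1B, against 4.565 and 4.69 in SK-ES1 shGFP. The A673 arrays had 4.67 and 4.21 under shRING1B, against 4.58 and 4.46 under shGFP, so the A673 shRING1B pair spanned the other A673 arrays. PAX8, a thyroid and kidney factor, had 4.84 and 4.55 in SK-ES1 shRING1B and 4.63 and 4.81 in SK-ES1 shGFP. Its A673 values were 4.41 and 4.66 under shRING1B and 4.88 and 4.59 under shGFP, with overlap in both lines. PAX5, which sets B-cell identity, had 4.81 and 4.76 in SK-ES1 shRING1B and 4.79 and 4.49 in SK-ES1 shGFP. In A673 it had 4.91 and 5.23 under shRING1B and 4.86 and 4.73 under shGFP, the 1 case among these 3 genes where both A673 shRING1B arrays were above both A673 shGFP arrays. Its A673 difference was 0.27, with a 95% interval of -0.05 to 0.60 (limma adjusted p = 0.358). The widest A673 interval of the 3 was that of PAX8, from -0.55 to 0.14.

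**Figure D2:**
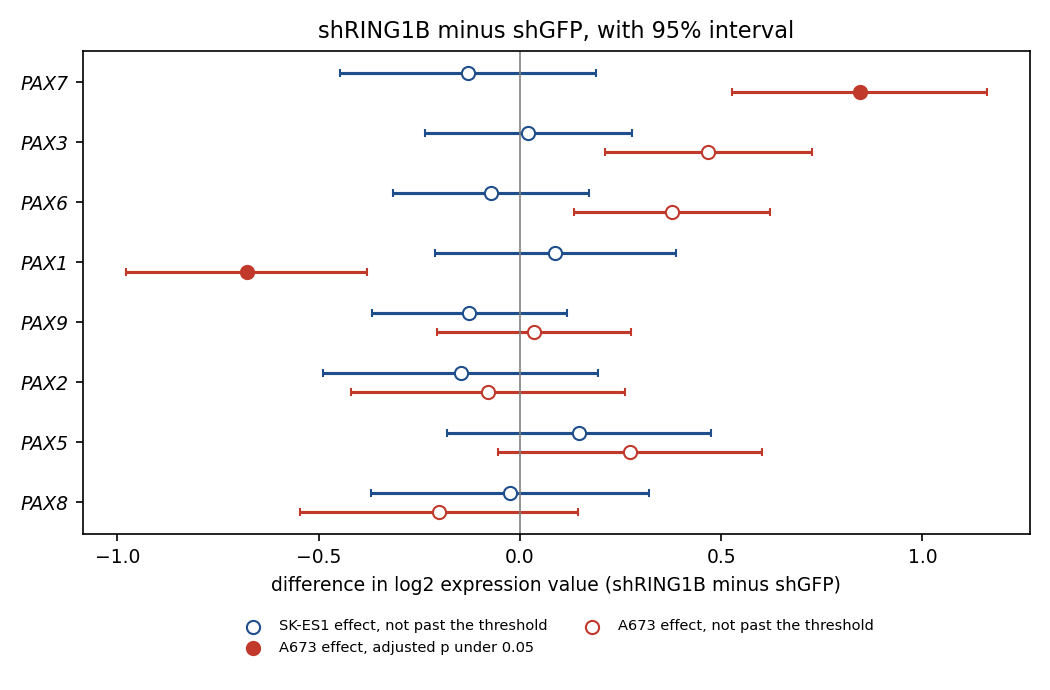
Difference in log2 expression value, shRING1B minus shGFP, for each PAX gene in SK-ES1 (blue) and A673 (red). Points are limma estimates, bars are 95% intervals, and filled points have an adjusted p under 0.05: PAX7 at 0.84 and PAX1 at -0.68, both in A673.

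Over the family, 2 of 8 members passed in A673, PAX7 higher and PAX1 lower, where 3.74% of all 14884 genes passed (0.705% higher and 3.04% lower). At an unadjusted p under 0.05 it was 4 of 8, against 18.9% of all genes. In SK-ES1 limma called 0 of 8, against 0.0672% of all genes, and 0 also at an unadjusted p under 0.05, against 7.36%. The median difference of the members was -0.05 in SK-ES1 and 0.15 in A673, and the medians of all genes were -0.004 and 0.01. The arrays of the hairpin groups did not overlap for 4 of 8 members in SK-ES1, against 37.2% of all genes, and for 5 of 8 in A673, against 49.9%. In SK-ES1 those were 1 member higher under shRING1B, against 17.8% of all genes, and 3 lower, against 19.3%. In A673 those were 4 members higher under shRING1B, against 26% of all genes, and 1 lower, against 23.9%. Averaged over both lines, the hairpin effect was called by limma for 0 members, with 3 at an unadjusted p under 0.05, against 1.36% of all genes called (0.114% higher and 1.24% lower) and 14.5% at an unadjusted p under 0.05. PAX7 had a mean effect of 0.36 (adjusted p = 0.14).

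Whether the lines responded differently was tested by the SK-ES1 difference minus the A673 difference. Limma called 0 of 8 members, with 4 at an unadjusted p under 0.05, against 0.786% of all genes called (0.625% higher and 0.161% lower) and 13.7% at an unadjusted p under 0.05. An opposite arrangement without overlap in the 2 lines was seen for PAX1 and PAX6, and for 8.69% of all genes. PAX7 had -0.97, with a 95% interval of -1.42 to -0.52 (adjusted p = 0.0618), and passed with a trended and robust variance (0.00691) or when dim genes were left out (0.0337). PAX1 had 0.77, with an interval of 0.34 to 1.19 (adjusted p = 0.119). PAX3 and PAX6 each had -0.45 (adjusted p = 0.268 and 0.246). For the other 4 members the values lay between -0.16 and 0.18.

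Between the lines themselves, PAX7, PAX6 and PAX1 differed and were higher in SK-ES1. Under shGFP, PAX7 was 2.12 higher in SK-ES1, or 4.33-fold, with a 95% interval of 1.80 to 2.43 (limma adjusted p = 2.23e-06). PAX1 was 1.32 higher, or 2.49-fold (adjusted p = 4.4e-05), and PAX6 1.28 higher, or 2.43-fold (adjusted p = 1.25e-05). These are 3 of 8 members, against 30.7% of all genes called, with 13.7% higher in SK-ES1 and 17% lower. At an unadjusted p under 0.05 the count was also 3, against 39.7%. Arrays of the lines did not overlap for the same 3 members, against 64.8% of all genes (32.3% higher in SK-ES1 and 32.6% lower). All 3 calls held in each of the 16 alternatives. The other 5 members differed by -0.16 to 0.11, and the widest of their intervals was -0.36 to 0.33, for PAX8.

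The same comparison under shRING1B, chosen after the data were seen, gave other distances for the same genes. Its differences use no array of the shGFP comparison, but the p-values of both rest on a spread estimated over all 8 arrays. The distance between SK-ES1 and A673 was 1.14 for PAX7 under shRING1B, against 2.12 under shGFP. For PAX6 it was 0.84 under shRING1B, against 1.28 under shGFP. For PAX1 it was 2.08 under shRING1B, against 1.32 under shGFP. These 3 were called (limma adjusted p = 0.000171, 0.000234 and 1.87e-06) and stayed called in each of the 16 alternatives. PAX3 was 0.35 lower in SK-ES1 (adjusted p = 0.0418), which was lost in 10 of 16 alternatives (highest adjusted p 0.154). It was lost without A673 shRING1B replicate 1 (0.145) or 2 (0.0812), SK-ES1 shRING1B replicate 1 (0.0948) or 2 (0.154), and A673 shGFP replicate 1 or 2 (0.0606 each). The 4 of 8 members called stand against 31.4% of all genes, with 13.8% higher in SK-ES1 and 17.7% lower, and 4 passed at an unadjusted p under 0.05, against 40.6%. Arrays of the lines did not overlap for 6 members, against 63.7% of all genes. PAX1, PAX6 and PAX7 were higher in SK-ES1, against 31.3%, and PAX3, PAX5 and PAX9 lower, against 32.4%. The change of these distances with the hairpin is the difference of effects given above, which was not called for any member.

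**Figure D3:**
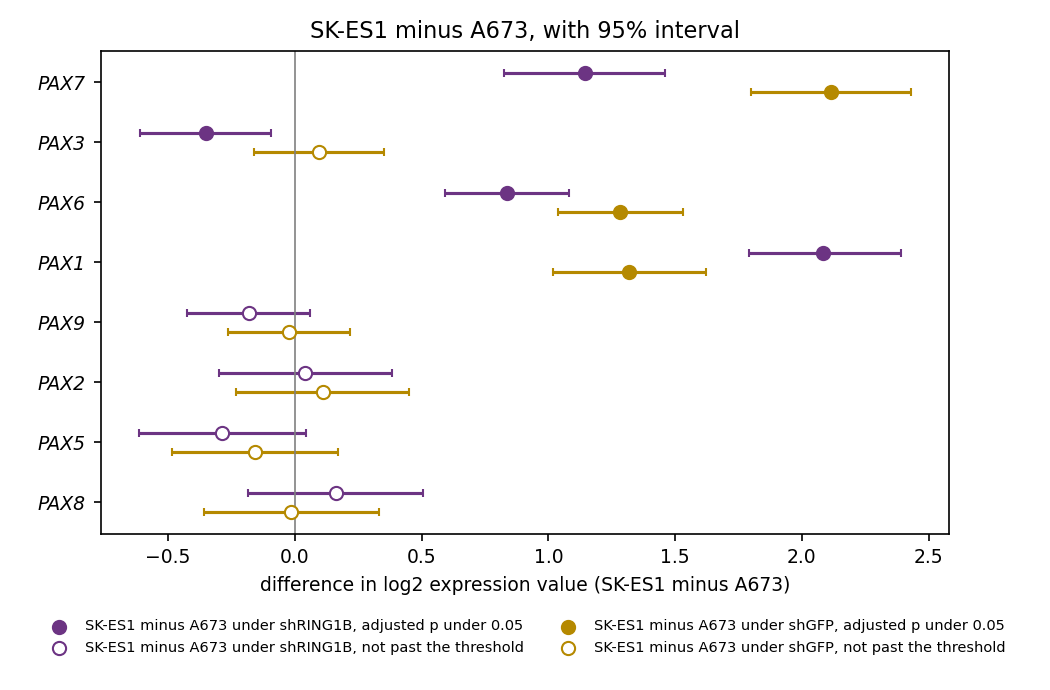
Difference in log2 expression value, SK-ES1 minus A673, under shRING1B (purple) and under shGFP (yellow) for each PAX gene. Points are limma estimates with 95% intervals, and filled points have an adjusted p under 0.05. PAX7 is at 1.14 and 2.12, PAX6 at 0.84 and 1.28, and PAX1 at 2.08 and 1.32.

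Ordered by mean, PAX7 was lowest in A673 shGFP at 6.265 ± 0.199 (SD, n = 2), then 7.11 ± 0.0441 in A673 shRING1B, 8.25 ± 0.228 in SK-ES1 shRING1B and 8.38 ± 0.013 in SK-ES1 shGFP. The neighbouring steps did not overlap except the last, between the SK-ES1 groups. PAX6 had the same order, at 4.26 ± 0.0293 in A673 shGFP, 4.64 ± 0.0797 in A673 shRING1B, 5.47 ± 0.0443 in SK-ES1 shRING1B and 5.54 ± 0.0243 in SK-ES1 shGFP. PAX1 had another order, with A673 shRING1B lowest at 4.94 ± 0.251 and A673 shGFP next at 5.62 ± 0.0352. Its SK-ES1 groups were above these, shGFP at 6.94 ± 0.0822 and shRING1B at 7.03 ± 0.0115. The last neighbours of PAX6 and of PAX1 did not overlap in their arrays, but neither difference was called in SK-ES1.

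The genes most like PAX7 were found by Pearson's correlation over the 8 arrays among 3912 genes with a standard deviation of at least 0.3. The first 5 were PROSER2-AS1 (0.9946), UHMK1 (0.9919), ISOC1 (0.9918), NCKAP1L (0.9914) and MYO19 (0.9903). They are an antisense RNA gene, a kinase that binds RNA-processing factors, an isochorismatase-domain protein, an actin regulator known from blood cells and a mitochondrial myosin. Their common feature is the step between the lines. PROSER2-AS1 averaged 8.00 ± 0.142 in SK-ES1 shRING1B, 8.01 ± 0.00368 in SK-ES1 shGFP, 7.38 ± 0.067 in A673 shRING1B and 6.79 ± 0.0472 in A673 shGFP (SD, n = 2 each). It rose by 0.59 in A673 (limma adjusted p = 0.0258), which was lost in 6 of 16 alternatives, among them each single A673 array left out (0.0622 to 0.208). The other 4 had A673 differences of 0.28 to 0.40 that did not pass (adjusted p = 0.0943 to 0.231). PAX6 was the other family member among the 100 genes most correlated with PAX7. With 8 arrays in 4 groups, and the hundredth gene still at 0.961, these correlations single out no partner.

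**Figure D4:**
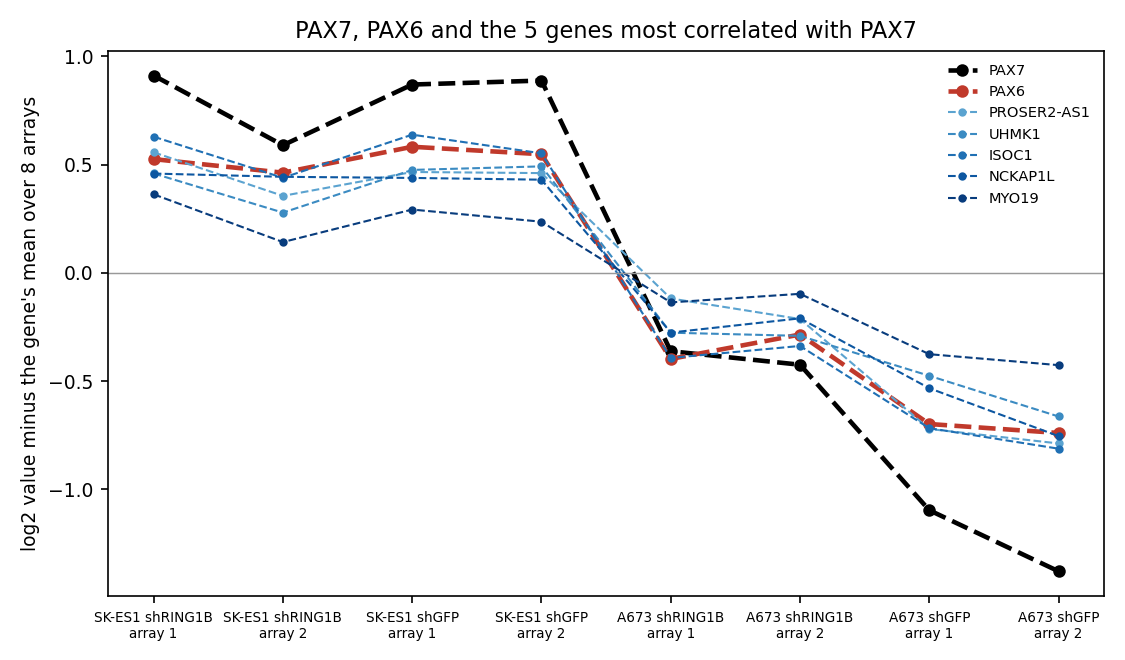
Log2 value minus the gene's own mean over the 8 arrays for PAX7 (black), PAX6 (red) and the 5 genes most correlated with PAX7 (blue). Points are arrays in their groups, and dashed lines join the points of 1 gene and show no order of arrays. Every gene lies above 0 on the SK-ES1 arrays and below 0 on the A673 arrays.

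None of the measured genes nearest to PAX7 on chromosome 1, by the gene order of GRCh38.p14, was called higher in A673 under shRING1B. On 1 side lie KLHDC7A and then ACTL8, an actin-like gene known mainly from testis. On the other lie MIR1290 and then IFFO2. ACTL8 averaged 6.07 ± 0.275 in SK-ES1 shRING1B and 4.92 ± 0.205 in SK-ES1 shGFP, against 4.67 ± 0.278 in A673 shRING1B and 5.51 ± 0.000849 in A673 shGFP. ACTL8 fell by 0.84 in A673 (limma adjusted p = 0.0311) and differed between the lines in its effect by 1.99 (adjusted p = 0.0114). The first call was lost without A673 shGFP replicate 1 or 2 or A673 shRING1B replicate 1, where ACTL8 fell by 0.84, 0.84 and 0.64. It was also lost with repeated quantile normalization (adjusted p = 0.0554), with only the A673 arrays fitted (0.0573) and with all probe sets tested (0.0648). The second was lost without A673 shGFP replicate 2 (0.0678) or SK-ES1 shRING1B replicate 1 (0.0535) or 2 (0.0723). The probe set of the MIR1290 gene fell by 1.03 in A673 (adjusted p = 0.0441). That call was lost in 6 of 16 alternatives, among them each of the 4 A673 arrays left out (falls of 0.83 to 1.24). KLHDC7A and IFFO2 had A673 differences of 0.27 and 0.11 (adjusted p = 0.394 and 0.732).

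Genes known to act with PAX factors were read from 8 lists of partners, cofactors and targets, in which 93 of 129 different genes were measured. Limma called 0 of the 93 in SK-ES1 under shRING1B, against 0.0672% of all genes. In A673 it called 8, all lower, against 3.04% of all genes called lower and 0.705% higher, so that falls also made up most calls over all genes. The plot of the partner lists shows them. At an unadjusted p under 0.05 the 8 lists had between 0 and 2 members each in SK-ES1, against 7.36% of all genes.

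The partners of PAX3 and PAX7 in muscle precursors had 18 of 22 genes measured, of which 3 fell in A673 (3.04% of all genes), 15 did not pass and 0 rose (0.705% of all genes). Their median difference was -0.04, against 0.01 for all genes. EYA1, a phosphatase and transcriptional coactivator, had 7.12 and 6.855 in SK-ES1 shRING1B and 7.07 and 7.19 in SK-ES1 shGFP. In A673 it had 6.80 and 6.83 under shRING1B, against 7.86 and 7.94 under shGFP. EYA1 fell by 1.09 in A673 (limma adjusted p = 0.00144) and stayed called in all 16 alternatives. Its difference of effects between the lines was 0.95 (adjusted p = 0.045). That call was lost in 11 of 15 alternatives, among them each of the 8 arrays left out (differences of 0.81 to 1.08). DACH1, a transcriptional cofactor, fell by 0.73 (adjusted p = 0.0241). Its call was lost without A673 shGFP replicate 1 or 2 or A673 shRING1B replicate 1, where it fell by 0.65, 0.81 and 0.64. The DACH1 call was also lost with only the A673 arrays fitted (adjusted p = 0.0527) and with all probe sets tested (0.0551). DACH1 lay at 3.585 to 4.90 over the 8 arrays, near the array medians. FGFR2, a receptor of fibroblast growth factors, fell by 0.485 (adjusted p = 0.0408). Its call was lost in 14 of 16 alternatives, among them each of the 8 arrays left out (falls of 0.43 to 0.54). Every other normalization also lost it (adjusted p = 0.0519 to 0.078). FGFR2 lay at 3.57 to 5.16 over the 8 arrays.

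MYF5 and MYOD1, the muscle determination genes that PAX3 and PAX7 act on, lay at 3.57 to 4.04 and at 4.16 to 4.54 over the 8 arrays, near the array medians. Neither was called under shRING1B in either line (limma adjusted p = 0.928 and 0.976 in SK-ES1, 0.654 and 0.761 in A673). These 2 genes were named after their values were seen.

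Among the partners of PAX3 in neural crest and melanocytes, 14 of 17 were measured, 2 fell in A673, 12 did not pass and 0 rose, against 3.04% of all genes lower and 0.705% higher. The median difference was -0.19, against 0.01 for all genes. TFAP2B, a neural crest factor, had 4.38 and 4.42 in SK-ES1 shRING1B and 4.695 and 4.635 in SK-ES1 shGFP, against 6.40 and 6.615 in A673 shRING1B and 7.435 and 7.77 in A673 shGFP. It fell by 1.09 in A673 (limma adjusted p = 0.00255), and stayed called in all 16 alternatives, with falls of 0.93 to 1.26. ZIC1, a zinc-finger factor of the neural plate border, fell by 0.61 (adjusted p = 0.0491). Its call was lost in 12 of 15 alternatives, among them 7 of the 8 single arrays left out. With single arrays left out its fall ranged from 0.42 to 0.81. ZIC1 lay at 3.13 to 4.68 over the 8 arrays, near or below the array medians, and was absent when dim genes were left out.

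The partners of PAX2 and PAX8 had 14 of 19 genes measured, and 2 fell in A673, where 3.04% of all genes did. They were EYA1 again, and GFRA1, a coreceptor of GDNF, which fell by 0.55 (limma adjusted p = 0.0441). The GFRA1 call was lost in 11 of 16 alternatives, among them each of the 8 arrays left out (falls of 0.43 to 0.67). GFRA1 lay at 3.75 to 4.81 over the 8 arrays, near the array medians. Of the B-cell partners of PAX5, 10 of 14 were measured and 1 fell, against the same 3.04%. LEF1, a nuclear effector of Wnt signalling, had 4.98 and 4.87 in SK-ES1 shRING1B and 4.93 and 4.65 in SK-ES1 shGFP. Its A673 values were 3.67 and 3.78 under shRING1B, against 4.64 and 5.12 under shGFP. The A673 shRING1B values lay below the medians of their arrays, 4.07 and 4.01. LEF1 fell by 1.16 in A673 (adjusted p = 0.00522), and by 0.92 without A673 shGFP replicate 2 (adjusted p = 0.0508). Its difference of effects was 1.29 (adjusted p = 0.0431). That call was lost in 10 of 15 alternatives, among them 7 of the 8 arrays left out. With single arrays left out the difference ranged from 1.05 to 1.52.

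The remaining lists had 0 or 1 members called in A673, where 3.74% of all genes were called, 18.9% had an unadjusted p under 0.05, and the median difference was 0.01. For the eye and forebrain partners of PAX6, 10 of 14 were measured and limma called 0, with 6 at an unadjusted p under 0.05 and a median difference of -0.28. SOX2, a stem and progenitor factor, was at -0.47 (adjusted p = 0.0698) and SIX3, a forebrain factor, at -0.42 (0.194), and SOX2 passed with a trended and robust variance (0.00502) or when dim genes were left out (0.0412). Of the sclerotome and pharyngeal partners of PAX1 and PAX9, 11 of 15 were measured and 0 were called, with 2 at an unadjusted p under 0.05 and a median of -0.21. NKX3-2, a sclerotome factor that PAX1 and PAX9 are known to switch on in mouse, and MSX1, a homeobox partner of PAX9 in teeth, each stood at -0.36 (adjusted p = 0.138 and 0.248). The cofactors of PAX proteins, 11 of 16 measured, had 0 called and 0 at an unadjusted p under 0.05, with values of -0.20 to 0.24. CARM1, a methyltransferase that acts with PAX7 in mouse satellite cells, and WDR5, a subunit of histone methyltransferase complexes, had 0.24 each (adjusted p = 0.27 and 0.272).

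PAX7 also belongs with the targets activated by EWSR1-FLI1. Of 16 other such targets 9 were measured, with a median difference in A673 of 0.27. KIT was the 1 gene called, and was lower, against 3.04% of all genes lower and 0.705% higher. At an unadjusted limma p under 0.05 it was 4 of 9, against 18.9% of all genes. After KIT, the smallest adjusted p in A673 belonged to genes that were higher under shRING1B and not called. These were CCK at 0.52 (limma adjusted p = 0.0784), CCND1 at 0.37 (0.144) and VRK1 at 0.27 (0.229). KIT, a receptor kinase, fell by 0.57 (limma adjusted p = 0.0264). Its call was lost in 6 of 16 alternatives, among them each of the 4 A673 arrays left out (falls of 0.50 to 0.63). Of the 9, 3 lay above 0 in SK-ES1, against 49% of all genes, and 6 in A673, against 52.2%. Their median in SK-ES1 was -0.09, against -0.004 for all genes.

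**Figure D5:**
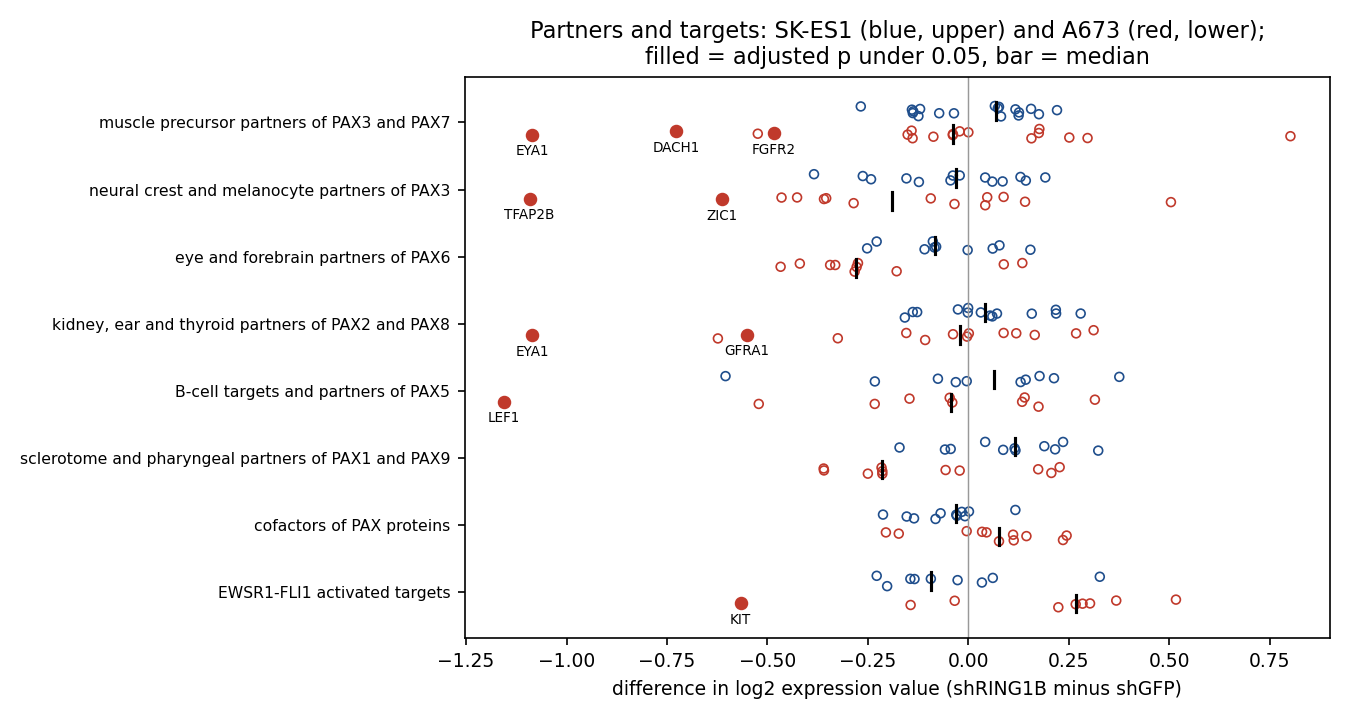
Difference in log2 expression value, shRING1B minus shGFP, of each measured gene in 8 lists of PAX partners, cofactors and targets, in SK-ES1 (blue, upper) and A673 (red, lower). Filled points have a limma adjusted p under 0.05 and are named, and black bars are list medians. The named genes all lie below 0 in A673, from FGFR2 at -0.485 to LEF1 at -1.16, and none is named in SK-ES1.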

How the data were processed

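RMA and limma are named in the submitters' processing notes. The authors deposited log2 values of 48144 probe sets for the 8 arrays. RMA corrects background, equalises the arrays' distributions by quantiles and summarises probes, which removes any shift common to most genes. Versions, build and annotation of that step are not given in the sources used here. Precision is limited by having 2 arrays per group.

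A platform annotation table gave 1 gene symbol to 16098 probe sets, several to 0, and left 32046 unnamed here. Each gene was read from its probe set with the highest mean, which gave 14884 genes. Using limma 3.58.1 (R 4.3.3), 4 group means were fitted over all 8 arrays, with 4 residual and 6 prior degrees of freedom. P-values are two-sided and adjusted by Benjamini-Hochberg over all genes of a comparison, and called under 0.05. Members and lists were chosen with earlier results of these data known. Named genes are all members, the list genes called in either line or otherwise the 2 with the smallest p in A673, the 5 most correlated with PAX7, and its 2 nearest measured genes on each side. The fit was tested on simulated data. The alternatives were other normalizations, variance models, fitted samples, probe set rules and filters, and leaving out each array.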

Additional observations from a re-analysis of the deposited data

Results flagged for a closer look

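The hairpin effect of PAX1 was 0.77 higher in SK-ES1 than in A673, and was singled out because both shRING1B arrays lay above both shGFP arrays in SK-ES1 and below them in A673. PAX6 was singled out by the opposite arrangement, with shRING1B below shGFP in SK-ES1 and above it in A673, and a difference of effects of -0.45. Such opposite arrangements were found for 1294 of 14884 genes (8.69%). The differences themselves were tested and not called (limma adjusted p = 0.119 for PAX1 and 0.246 for PAX6), with an adjusted p of 0.0474 for PAX1 under a trended and robust variance.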

How the results depend on the processing

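Of 752 values of the 8 PAX genes under alternative settings, 706 kept their direction and their side of the threshold. Of the others, 17 lost a call, 6 gained one and 23 changed sign. Some settings leave an estimate unchanged by construction, so a kept direction there is no test. PAX7 in A673 stayed at 0.844 with a trended and robust variance, with only the A673 arrays fitted and with all probe sets tested. It also stayed there with probe sets averaged, with dim genes left out and with any 1 SK-ES1 array left out. Each member has 1 probe set, so averaging changes none of their values. The calls of PAX7, PAX6 and PAX1 between the lines under either hairpin held in every alternative run. The cause of the changes below was not tested. No paired analysis was possible because the labels give no replicate numbers, and the numbers used here follow accession order and only name arrays.

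With single arrays left out, PAX7 in A673 ranged from 0.70 to 0.98, PAX7 in SK-ES1 from -0.29 to 0.032, and the members called in A673 from 0 to 2. The count of A673 members called was 1 when only the A673 arrays were fitted and 1 when all probe sets were tested, against 2. With a trended and robust variance 1 member was called for the mean effect, PAX7 at 0.36, and 2 for the difference of effects, among them PAX7 at -0.97. When dim genes were left out 1 was called for the difference, again PAX7.

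Counts of all genes called moved more. In A673, 557 became 1052 with a trended and robust variance, 213 with the A673 arrays alone, and 101 to 434 with single arrays left out. In SK-ES1, 10 became 16 with median centring, 34 with a trended and robust variance, 4 with all probe sets, 21 without dim genes and 2 to 7 with single arrays left out. For the mean effect 202 became 481, 337 without dim genes and 51 to 158. For the difference of effects 117 became 281, 60 with all probe sets, 179 without dim genes and 0 to 72. Between the lines 4572 under shGFP became 7224, and 4677 under shRING1B became 7606, with all probe sets tested.

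The sign changes were of small, uncalled values. With repeated quantile normalization PAX8 stood at 0.00605 and PAX9 at 0.00077 between the lines under shGFP, and PAX2 at -0.023 under shRING1B, where cyclic loess gave -0.039 and median centring -0.014. Median centring gave PAX3 -0.016 in SK-ES1. With single arrays left out PAX2 ranged from -0.31 to 0.15 in A673, -0.23 to 0.00203 for the mean effect, -0.30 to 0.16 for the difference and -0.19 to 0.27 between the lines under shRING1B. PAX9 ranged from -0.0084 to 0.077 in A673 and -0.055 to 0.0095 between the lines under shGFP, and PAX8 from -0.17 to 0.12 in SK-ES1 and -0.16 to 0.13 between the lines. PAX3 ranged from -0.068 to 0.11 in SK-ES1, and PAX5 from -0.0061 to 0.30 in SK-ES1 and -0.29 to 0.033 for the difference. Between the lines under shGFP, SOX2 ranged from -0.064 to 0.13, LEF1 from -0.32 to 0.15 and CARM1 from -0.0033 to 0.055.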
